A study of Mus musculus with 8 samples.

Results

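Messenger RNA decay is controlled in lymphocytes by a small set of proteins that shorten the life of transcripts made after activation. The 10 genes described here encode such proteins in mouse natural killer (NK) cells: the ZFP36 family (*Zfp36*, *Zfp36l1*, *Zfp36l2*), the BTG/TOB adaptors (*Btg1*, *Btg2*, *Tob1*), the Regnases (*Zc3h12a*, *Zc3h12d*) and the Roquins (*Rc3h1*, *Rc3h2*). They were taken by gene name from the 54838 identifiers in the count files, and all 10 were among the 13903 genes that passed the filter on low counts.

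The 4 teNK libraries came from spleens of MMTV-PyMT mice, which express the polyoma middle T oncogene from a mammary tumour virus promoter and are described by the submitters as bearing tumours. The 4 hNK libraries came from spleens of healthy wild-type FVB/n mice. All 8 were made from CD45+/CD49b+/CD3- sorted cells that had been kept in medium with cytokines for 12 to 16 h. The sources used here give no ages, cytokines, strain background of the MMTV-PyMT mice or number of animals per library. They do not state that each replicate was another mouse. The p-values therefore speak of the spread among libraries alone, and that spread may be technical.

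ZFP36 proteins bind AU-rich elements in the 3′ untranslated region (3′ UTR) of cytokine and growth control transcripts and recruit the CCR4-NOT complex, which removes the poly(A) tail. BTG and TOB proteins bind the catalytic subunits of the same deadenylase, and *Btg1* and *Btg2* are known for holding T cells in quiescence. Regnase-1, from *Zc3h12a*, is an endonuclease that cuts stem-loops in the 3′ UTRs of inflammatory transcripts, and Roquin proteins bind related stem-loops and lead their targets to deadenylation. All 4 groups are known as brakes on lymphocyte activation.

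The libraries held 13111043 to 16209895 reads on genes in teNK and 5202131 to 12419324 in hNK, so the counting error is larger in hNK. Levels are given in CPM, counts per 1000000 reads after scaling between libraries. Defining NK genes such as *Ncr1* and *Eomes* were read in every library, and 10 NK markers summed to 8033 to 8689.9 CPM in teNK and 4551 to 5488 CPM in hNK. Of these 10, 8 were called higher, among them *Ncr1* (4.83-fold) and *Tbx21* (4.19-fold). *Eomes* was called lower (log2 fold change -0.30, adjusted p = 0.0011), and *Gzmb* was not called. Markers of some other cells also differed between the groups. The 9 platelet markers summed to 171 to 297 CPM in teNK and 18.0 to 42.1 CPM in hNK, and all 8 that were tested were called higher. The 9 B cell markers summed to 127 to 152 CPM in teNK and 85.4 to 123 CPM in hNK, with 8 called higher. Most of that sum was *Ighm*, which averaged 96.5 CPM in teNK and 95.8 CPM in hNK and was not called (adjusted p = 0.901). The other 8 rose by 6.55-fold (*Cd79b*) to 120-fold (*Cr2*, 14.5 CPM in teNK and 0.124 CPM in hNK). The 9 T cell markers summed to 29.3 to 39.6 CPM in teNK and 25.9 to 48.1 CPM in hNK. Of the 5 T cell markers tested, *Cd3d* was called higher (log2 fold change 1.22, adjusted p = 0.000403) and *Cd6* lower (-4.31, adjusted p = 8.53e-08, with 6 reads in teNK and 84 in hNK), while *Cd5* and *Cd8a* had 3 reads and 1 read in teNK and none in hNK. The 9 monocyte and macrophage markers summed to 10.2 to 14.3 CPM in teNK and 4.05 to 6.15 CPM in hNK. The 7 neutrophil markers summed to 1.65 to 6.12 CPM in teNK and were all at 0 in hNK. The 6 erythroid markers summed to 1.04 to 5.65 CPM in teNK and 0 to 0.361 CPM in hNK. The 6 dendritic cell markers overlapped, at 12.4 to 14.1 CPM in teNK and 10.6 to 13.55 CPM in hNK. The 6 mammary epithelium markers went the other way, at 0.254 to 0.884 CPM in teNK and 3.97 to 5.28 CPM in hNK. Most of that was *Epcam*, which was 8.97-fold lower in teNK (adjusted p = 1.19e-07). The part of these other cells in the results below was not tested. In bulk RNA, fewer cells of a type and less RNA per cell cannot be told apart. Only the descriptions of teNK libraries mention technical repeat runs, so such runs and group cannot be told apart.

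Of the 10 decay regulators, 8 rose in teNK and none fell (edgeR quasi-likelihood test, adjusted p under 0.05). Among all genes tested, 26.4% rose and 25.6% fell, so that 51.9% changed in either direction. The 10 were chosen with earlier results of these data known. Their counts and median are therefore a description, not a test of the set. All 3 ZFP36 genes and all 3 BTG/TOB genes rose, with 1 of the 2 Regnase genes and 1 of the 2 Roquin genes. The median log2 fold change of the 10 was 0.83, against -0.02 over all genes tested. For the same 8 genes no hNK library reached into the teNK range, and 46.5% of all genes tested were separated in this way. Rises of at least 2-fold were called for *Zfp36* and *Btg2*, which is 2 of 10, and for 8.28% of all genes tested, while falls of that size were called for none of the 10 and for 5.8% of all genes. Together the 10 transcripts summed to 4641 ± 245 CPM in teNK and 2501 ± 248 CPM in hNK (SD, n = 4 each). With library size alone as the scaling, 7 of the 10 were called higher; that scaling moved the median of all genes by -0.13 on the log2 scale and gave 2709 genes higher and 5114 lower over all genes, against 3665 higher and 3557 lower with the main scaling.

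**Figure D1:**
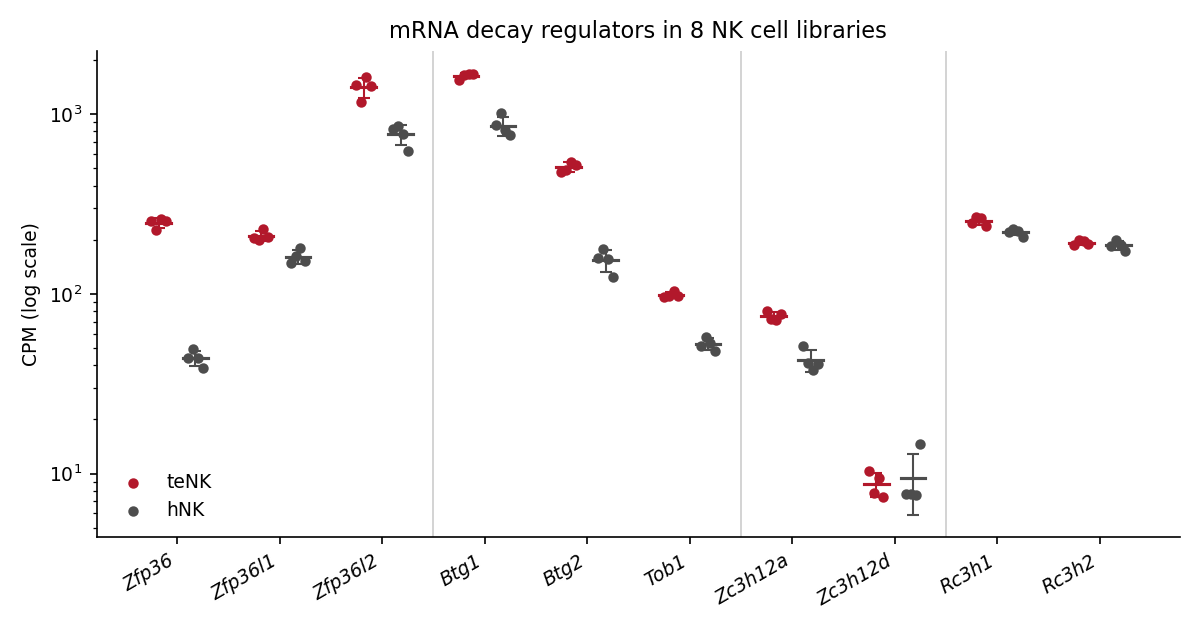
CPM on a log axis of the 10 decay regulators in each of 8 libraries (points), with the mean (bar) and SD (whisker) of 4 libraries, teNK in red left of hNK in grey. *Zfp36* lies at 225 to 262 CPM in teNK and 38.8 to 49.2 CPM in hNK, while the groups overlap for *Zc3h12d* and *Rc3h2*.

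*Zfp36* encodes tristetraprolin, the founding member of its family, and showed the largest change of the 10. The gene lies on the minus strand at chr7:28376784-28380253 (GRCm38, ENSMUSG00000044786). It measured 255, 225, 262 and 253 CPM in teNK replicates 1 to 4 and 44.1, 49.2, 44.2 and 38.8 CPM in hNK replicates 1 to 4. Every teNK library was more than 4 times as high as any hNK library. The rise was 5.60-fold (log2 fold change 2.48 ± 0.08, SE, adjusted p = 2.15e-13), and 98.1% of genes tested had a log2 fold change at or below it. The counts behind these values were 13995 reads in teNK and 1633 in hNK.

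*Zfp36l2*, a paralog that restrains cell cycle entry of developing lymphocytes, was the most abundant family member. It measured 1445, 1165, 1597 and 1438 CPM in teNK and 822, 857, 777 and 626 CPM in hNK. The teNK libraries all lay above the hNK libraries, with teNK replicate 2 the lowest of its group and hNK replicate 4 the lowest of the other. The log2 fold change was 0.87 ± 0.10 (SE, adjusted p = 2.82e-06), a 1.83-fold rise. *Zfp36l1*, which acts with *Zfp36l2* in lymphocyte development, measured 204, 199, 228 and 206 CPM in teNK and 148, 163, 179 and 152 CPM in hNK. The groups again did not overlap, but the rise was small, at 1.31-fold (log2 fold change 0.38 ± 0.07, adjusted p = 0.00022). The fourth mouse paralog, *Zfp36l3*, is known from placenta and had 2 reads in teNK and 3 in hNK.

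The 3 genes did not rise in proportion. The log2 ratio of *Zfp36* to *Zfp36l1* counts within a library was 0.25 ± 0.07 in teNK and -1.86 ± 0.15 in hNK (SD, n = 4 each), a difference of 2.11. For *Zfp36* to *Zfp36l2* the difference was 1.62, and for *Zfp36l1* to *Zfp36l2* it was -0.49. Such a ratio does not depend on the scaling between libraries. In each of these 3 ratios the groups were fully separated, which gives p = 0.0286 in an exact 2-sided permutation test, the smallest that 4 against 4 allows, and 0.0327 after Benjamini-Hochberg adjustment over the 8 ratios tested. Per kilobase of exon, *Zfp36* made up 13.3% ± 0.638 of the family's transcripts in teNK and 4.47% ± 0.172 in hNK (SD, n = 4 each). *Zfp36l2* kept the largest share, 73.7% ± 1.49 in teNK and 76.5% ± 2.24 in hNK.

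ZFP36 family proteins bind AU-rich sites of the kind that their own transcripts carry, so the 3′ UTRs of the 10 genes were read for the nonamer TTATTTATT on the sense strand. It was found in all 3 ZFP36 genes and in both Roquin genes, and in none of the BTG/TOB and Regnase genes. That is 5 of 10, or 50%, against 8.45% of the 10857 tested genes with an annotated 3′ UTR. For each gene, the longest 3′ UTR among its annotated protein-coding transcripts was read. Whether these cells use that 3′ UTR was not tested. The 10 also had longer 3′ UTRs, with a median of 2017 bases against 1187. The shorter heptamer TATTTAT, which the nonamer contains, was in 6 of the 10 and in 30.6% of the tested genes with an annotated 3′ UTR, with *Btg2* as the sixth. A match is a description of the letters and not evidence of binding. The sites are shown 5′ to 3′ as DNA letters from the GENCODE M21 transcripts (GRCm38), with the nonamer in capitals, because they are where the known motif of the family lies in these transcripts.
*Zfp36* (chr7:28376952-28376978, minus strand): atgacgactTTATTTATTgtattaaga
*Zfp36l1* (chr12:80108168-80108194, minus strand): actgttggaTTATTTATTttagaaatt
*Zfp36l2* (chr17:84184915-84184941, minus strand): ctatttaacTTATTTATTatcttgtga
*Rc3h1* (chr1:160970044-160970070, plus strand): ctttactcaTTATTTATTgagatgagg
*Rc3h2* (chr2:37373288-37373314, minus strand): aaagacattTTATTTATTttactctgt
Outside the nonamer the 5 stretches differ from each other. The 5 genes with the site include the largest rise of the 10 (*Zfp36*), 2 of the 3 smallest changes of either sign (*Rc3h2* and *Rc3h1*) and 2 changes between them.

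All 3 BTG/TOB genes rose, with summed levels of 2241 ± 87.7 CPM in teNK and 1068 ± 129 CPM in hNK (SD, n = 4 each). Most of each sum was *Btg1*, which averaged 1636 CPM in teNK and 862 CPM in hNK. *Btg1* (chr10:96617006-96622809, plus strand), an adaptor of CCR4-NOT that is abundant in resting lymphocytes, measured 1550.4, 1656, 1676 and 1661.5 CPM in teNK and 863, 1008, 815 and 764 CPM in hNK. The groups did not overlap, and teNK replicate 1 stood below the other 3 teNK libraries. The log2 fold change was 0.92 ± 0.08 (SE, adjusted p = 1.16e-07), a 1.90-fold rise.

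*Btg2* (chr1:134075170-134079120, minus strand), a close relative induced by p53 and by growth factors, measured 473, 487, 544 and 523 CPM in teNK and 158, 177, 157 and 123 CPM in hNK. The lowest teNK library was above the highest hNK library by more than 2 times. Its log2 fold change of 1.72 ± 0.09 (SE, adjusted p = 1.37e-10), or 3.29-fold, was the second largest of the 10. *Tob1* (chr11:94211454-94215495, plus strand), an antiproliferative adaptor that also binds poly(A)-binding protein, measured 96.4, 97.7, 103 and 97.1 CPM in teNK and 51.1, 57.6, 53.1 and 47.9 CPM in hNK. It rose 1.87-fold without overlap (log2 fold change 0.90 ± 0.07, adjusted p = 9.98e-09).

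*Btg2* rose more than both relatives. The log2 ratio of *Btg2* to *Tob1* was 2.36 ± 0.06 in teNK and 1.54 ± 0.12 in hNK (SD, n = 4 each), a difference of 0.82. The ratio of *Btg1* to *Btg2* differed by -0.80, and neither ratio overlapped between groups (exact permutation p = 0.0286, adjusted 0.0327 over 8 ratios). The ratio of *Btg1* to *Tob1* was 4.05 ± 0.05 in teNK and 4.03 ± 0.08 in hNK, a difference of 0.02 that lay within the spread of the libraries (exact permutation p = 0.714, adjusted 0.714). *Btg2* made up 34.3% ± 0.928 of the family's transcripts per kilobase in teNK and 23.0% ± 1.28 in hNK.

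The stretches before the starts of the 2 genes with the largest rises are shown, each with a motif that it carries. The 2 genes were taken for the size of their rises, and the part of any motif in the rises was not tested. Each stretch is the 250 bases before the RefSeq start (GRCm38.p6), read 5′ to 3′ along the gene, with the motif in capitals. For *Zfp36* the annotations differ: all 250 bases lie inside the first exon of a longer GENCODE M21 transcript, so by that annotation the stretch is transcribed.
*Zfp36* (chr7:28379229-28379478, minus strand): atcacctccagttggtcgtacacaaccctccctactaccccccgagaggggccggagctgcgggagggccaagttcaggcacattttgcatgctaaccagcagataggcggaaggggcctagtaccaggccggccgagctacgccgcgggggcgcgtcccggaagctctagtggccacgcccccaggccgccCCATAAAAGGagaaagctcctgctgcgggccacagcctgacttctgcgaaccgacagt
*Btg2* (chr1:134079156-134079405, minus strand): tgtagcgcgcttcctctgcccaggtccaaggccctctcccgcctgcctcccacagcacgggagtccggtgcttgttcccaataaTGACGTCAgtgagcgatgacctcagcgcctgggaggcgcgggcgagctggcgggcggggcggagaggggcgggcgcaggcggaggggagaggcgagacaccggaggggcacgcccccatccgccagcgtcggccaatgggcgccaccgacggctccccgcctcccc
The *Zfp36* stretch held a match to the SRF CArG box whose first base is 58 bases before the start, a motif in 1.47% of the 32851 promoter windows of this length. The *Btg2* stretch held the full cyclic AMP response element TGACGTCA, first base 166 before the start, a motif in 1.55% of the windows. Both strands were searched, and RefSeq windows were found for 9 of the 10 genes. Neither motif was in the other 7 windows. The shorter motif TGACGT, which the full cyclic AMP response element contains, was in 6.47% of all windows. Among the 9 windows it was in those of *Btg1* and *Btg2*, so it was not particular to *Btg2*. The AP-1 motif TGANTCA, found in 6.75% of all windows, was in those of *Zfp36l1* and *Rc3h1* and not in those of *Zfp36* and *Btg2*. The TATA and CCAAT boxes, in 12.4% and 33.8% of all windows, were also searched. Both were in the windows of *Zfp36l1*, *Btg1* and *Tob1*, and the CCAAT box was in that of *Btg2*. All of these are matches of letters, with no measurement of binding.

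**Figure D2:**
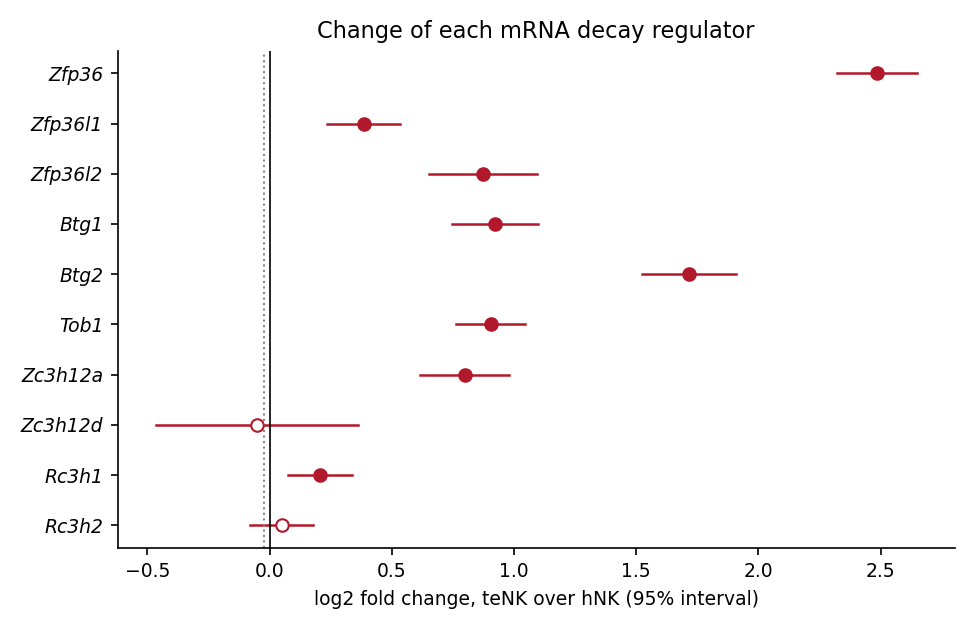
Log2 fold change of each decay regulator in teNK over hNK (points) with its 95% interval (lines). Filled points passed an adjusted p of 0.05, open points did not, and the dotted line is the median of all genes tested (-0.02); *Zfp36* (2.48) and *Btg2* (1.72) lie farthest to the right.

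Of the Regnases, *Zc3h12a* rose and *Zc3h12d* did not pass the test. *Zc3h12a* (chr4:125118423-125127840, minus strand), the gene of Regnase-1, measured 79.8, 72.0, 71.7 and 77.3 CPM in teNK and 51.5, 41.3, 37.8 and 40.8 CPM in hNK. The groups did not overlap, and hNK replicate 1 was the highest of its group. The log2 fold change was 0.80 ± 0.09 (SE, adjusted p = 9.11e-07), a 1.74-fold rise.

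*Zc3h12d* (chr10:7832470-7870396, plus strand), the gene of Regnase-4, was the least abundant of the 10, with 10.3, 7.81, 9.40 and 7.41 CPM in teNK and 7.65, 7.70, 7.59 and 14.6 CPM in hNK. The ranges overlapped, and hNK replicate 4 stood apart from the other 3 hNK libraries. Its log2 fold change was -0.05 (95% interval -0.47 to 0.36, adjusted p = 0.841), and 0.19 without hNK replicate 4 (adjusted p = 0.338). In that library the T cell and B cell marker sums, 48.1 and 123 CPM, were also the highest of the hNK group. Of the B cell sum, *Ighm* alone made 120 CPM. The part of such cells in the *Zc3h12d* value was not tested. The log2 ratio of *Zc3h12a* to *Zc3h12d* was 3.11 ± 0.21 in teNK and 2.23 ± 0.54 in hNK, without overlap (exact permutation p = 0.0286, adjusted 0.0327 over 8 ratios). The difference of 0.88 became 0.63 without hNK replicate 4.

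Of the Roquin genes, *Rc3h1* rose slightly, with a call that depended on the scaling, and *Rc3h2* did not pass the test. *Rc3h1* (chr1:160906418-160974978, plus strand), the gene of Roquin-1, measured 246, 268, 264 and 239 CPM in teNK and 221, 229, 223 and 207 CPM in hNK. The lowest teNK library was just above the highest hNK library. The log2 fold change was 0.21 ± 0.06 (SE, adjusted p = 0.0105), a 1.15-fold rise. With library size alone it was 0.075 (adjusted p = 0.307), and over 16 alternatives it was called in 15. *Rc3h2* (chr2:37370069-37422903, minus strand), the gene of Roquin-2, measured 187, 198, 198 and 188 CPM in teNK and 184, 199, 188 and 172 CPM in hNK. The ranges overlapped, and the log2 fold change was 0.05 (95% interval -0.08 to 0.18, adjusted p = 0.518), or -0.080 with library size alone. The ratio of *Rc3h1* to *Rc3h2*, which no scaling affects, was 0.40 ± 0.04 on the log2 scale in teNK and 0.25 ± 0.03 in hNK, without overlap (exact permutation p = 0.0286, adjusted 0.0327).

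Levels of different genes were compared per kilobase of merged exon, as RPKM. In teNK the order from the top was *Zfp36l2* (399.8 ± 51.0 RPKM), *Btg1* (310.1 ± 10.9), *Btg2* (185 ± 11.9), *Zfp36* (71.7 ± 4.71), *Zfp36l1* (70.02 ± 4.31), *Tob1*, *Zc3h12a*, *Rc3h1*, *Rc3h2* and *Zc3h12d* (2.13 ± 0.328, SD, n = 4). Of the 9 neighbouring pairs in this order, only *Zfp36* and *Zfp36l1* had overlapping libraries. In hNK *Zfp36* stood eighth, at 12.7 ± 1.21 RPKM, below *Zc3h12a* and above *Rc3h2*. There, 3 neighbouring pairs overlapped, namely *Zfp36l2* with *Btg1*, *Btg2* with *Zfp36l1*, and *Zc3h12a* with *Zfp36*. With the longest transcript as the length, all 10 genes kept their place in teNK and 7 kept it in hNK. *Zfp36* was still eighth in hNK, but both neighbours turned: it stood at 15.8 ± 1.51 RPKM, above *Zc3h12a* (15.5 ± 2.16) and below *Rc3h2* (20.8 ± 1.246, against 9.47 ± 0.568 per merged exon).

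**Figure D3:**
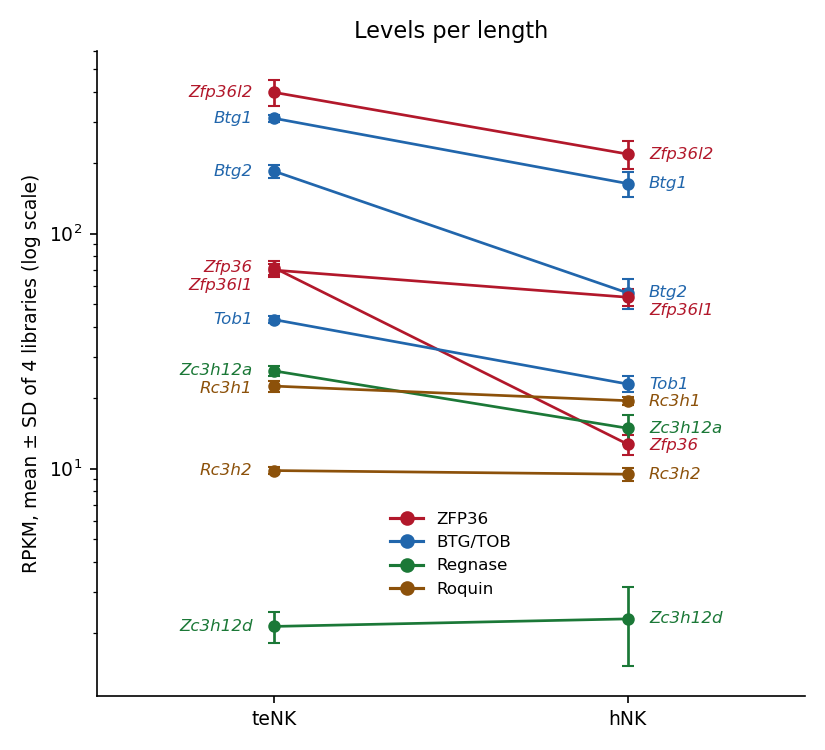
Mean RPKM with SD over 4 libraries, on a log axis, of the 10 decay regulators in teNK (left) and hNK (right), coloured by family. *Zfp36* is at 71.7 RPKM in teNK and 12.7 RPKM in hNK and changes its place in the order, while *Rc3h2* and *Zc3h12d* run nearly level.

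Of 6 paralogs outside the 10, 3 could be tested, and 1 was called higher, against 26.4% of all genes tested. *Tob2*, the paralog of *Tob1*, averaged 95.8 ± 6.70 CPM in teNK and 83.4 ± 4.19 CPM in hNK (SD, n = 4 each), and its log2 fold change was 0.20 ± 0.07 (SE, adjusted p = 0.0214). That call was lost without hNK replicate 4 (adjusted p = 0.062), without teNK replicate 1 (0.0519) and without teNK replicate 4 (0.0672), and with library size alone (0.374). *Btg3* averaged 27.6 ± 1.90 CPM in teNK and 25.1 ± 2.54 CPM in hNK and did not pass (adjusted p = 0.275). *Zc3h12b* averaged 2.19 ± 0.726 CPM in teNK and 3.39 ± 0.720 CPM in hNK (log2 fold change -0.61, adjusted p = 0.0576), and passed as lower without teNK replicate 1 (adjusted p = 0.0306) and without teNK replicate 3 (0.0463). *Zc3h12c* did not pass the filter on low counts, with 59 reads in teNK and 15 in hNK. Its libraries did not overlap, at 0.643 to 1.52 CPM in teNK and 0.238 to 0.582 CPM in hNK, and without the filter it was called higher (log2 fold change 1.305, adjusted p = 0.0196). *Btg4*, an oocyte gene, had 4 reads in teNK and 1 in hNK.

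The enzymes that the regulators work through had a median change near that of all genes. Over the lists of deadenylases, decapping, exosome and nonsense-mediated decay, 9 of 54 genes tested rose, 12 fell and 33 did not pass, and the median log2 change was -0.03. That is 16.7% higher and 22.2% lower, against 26.4% and 25.6% of all genes tested. None of the 54 rose by 2-fold, and 1 fell by that much, against 8.28% and 5.8% of all genes. Of 14 deadenylase genes, 3 rose (21.4%) and 4 fell (28.6%), near the shares of all genes. *Cnot6l*, a catalytic subunit of CCR4-NOT, averaged 424 ± 13.5 CPM in teNK and 306 ± 31.1 CPM in hNK (log2 fold change 0.47 ± 0.07, adjusted p = 4.34e-05), and *Pan3*, of the PAN2-PAN3 deadenylase, rose 1.27-fold. *Cnot11*, a structural subunit, averaged 65.6 ± 2.39 CPM in teNK and 81.2 ± 3.66 CPM in hNK, a log2 fold change of -0.31 ± 0.06, and the nuclease gene *Parn* fell by 0.38 ± 0.08 on the log2 scale. *Cnot7* and *Cnot8*, whose products the BTG and TOB proteins bind, had log2 fold changes of 0.11 (adjusted p = 0.230) and 0.23 (adjusted p = 0.0186). The *Cnot8* call was lost without hNK replicate 3 (adjusted p = 0.0608) and with library size alone (0.287); this pair was named after its values were seen.

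Of 14 genes for decapping and 5′-to-3′ decay, 3 rose (21.4%) and none fell, against 26.4% and 25.6% of all genes tested. However, *Ddx6* passed as lower without hNK replicate 1 (adjusted p = 0.0285), and 7 genes passed as lower with library size alone. *Xrn1*, the cytoplasmic 5′-to-3′ exonuclease, averaged 374 ± 20.7 CPM in teNK and 251 ± 10.6 CPM in hNK (log2 fold change 0.57 ± 0.06, adjusted p = 1.07e-06). *Pnrc1*, a decapping activator, rose 1.52-fold and the decapping subunit gene *Dcp1b* 1.43-fold. Of 16 exosome and SKI genes tested, 1 rose (6.25%) and 7 fell (43.75%), or 4 without hNK replicate 4. The core subunit gene *Exosc4* averaged 10.9 ± 0.964 CPM in teNK and 26.9 ± 1.10 CPM in hNK (log2 fold change -1.30 ± 0.10, adjusted p = 9.88e-09). *Exosc5* fell by 0.78 and the catalytic subunit gene *Dis3* by 0.50 on the log2 scale, while *Skiv2l*, the SKI helicase gene, rose 1.45-fold. *Exosc6* was listed at 0 reads in every library.

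Of 10 genes for nonsense-mediated decay, 2 rose (20%) and 1 fell (10%), against 26.4% and 25.6% of all genes tested. The fall of *Smg9* (log2 fold change -0.34 ± 0.09, adjusted p = 0.00599) held without each library in turn. The rise of *Upf3a* was small (0.22 ± 0.09, adjusted p = 0.0464). No gene of this list rose without hNK replicate 2 or without teNK replicate 1, 2 or 3, and 1 rose without hNK replicate 4 or teNK replicate 4. Without hNK replicate 3 the count was also 1, and *Upf3b* passed only without hNK replicate 1.

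Among 20 other proteins that bind 3′ UTRs or carry miRNA silencing, 5 rose (25%) and 4 fell (20%), and the median log2 change was 0.07. Over all genes tested, 26.4% rose and 25.6% fell. *N4bp1*, a ribonuclease related to the Regnases, averaged 149 ± 9.62 CPM in teNK and 109 ± 4.62 CPM in hNK (log2 fold change 0.45 ± 0.06, adjusted p = 1.65e-05), and *Tial1*, an AU-rich element binder of stress granules, rose by 0.26 ± 0.07 on the log2 scale but was not called with library size alone (adjusted p = 0.102). *Hnrnpd*, the gene of AUF1, fell by 0.30 ± 0.06 and the poly(A)-binding protein gene *Pabpc4* by 0.37 ± 0.07 on the log2 scale. The count of rises was 3 without hNK replicate 2, hNK replicate 4 or teNK replicate 3, and 2 without teNK replicate 2. *Elavl1*, whose product HuR opposes ZFP36 proteins on AU-rich elements, had a log2 value of 0.03 for teNK over hNK (95% interval -0.10 to 0.16, adjusted p = 0.688). The value for *Arid5a*, whose product opposes Regnase-1, was -0.01 (95% interval -0.15 to 0.13, adjusted p = 0.932). Both were chosen after their values were seen.

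The proteins of the 10 genes are held in check by kinases and a protease, and 5 of 10 such genes rose while 1 fell. Over all genes tested, 26.4% rose and 25.6% fell. MALT1 is a protease that cuts Regnase-1 and Roquin, and it acts with BCL10. *Malt1* averaged 412 ± 37.4 CPM in teNK and 319 ± 5.40 CPM in hNK (log2 fold change 0.37 ± 0.07, adjusted p = 0.000269). *Bcl10* rose 1.23-fold (adjusted p = 0.000908). *Ikbkb*, a kinase that marks Regnase-1 for degradation, rose 1.56-fold (adjusted p = 5.62e-07). *Mapkapk2*, the kinase that phosphorylates tristetraprolin, averaged 116 CPM in teNK and 115 CPM in hNK and had an adjusted p of 0.927; it was chosen after its values were seen. The fall was that of its relative *Mapkapk3*, named for that reason after its values were seen, with 18.4 ± 0.978 CPM in teNK and 25.1 ± 3.33 CPM in hNK (-0.46 ± 0.10, adjusted p = 0.00101). The count of falls was 2 without hNK replicate 3, where *Btrc* also passed (adjusted p = 0.00842).

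**Figure D4:**
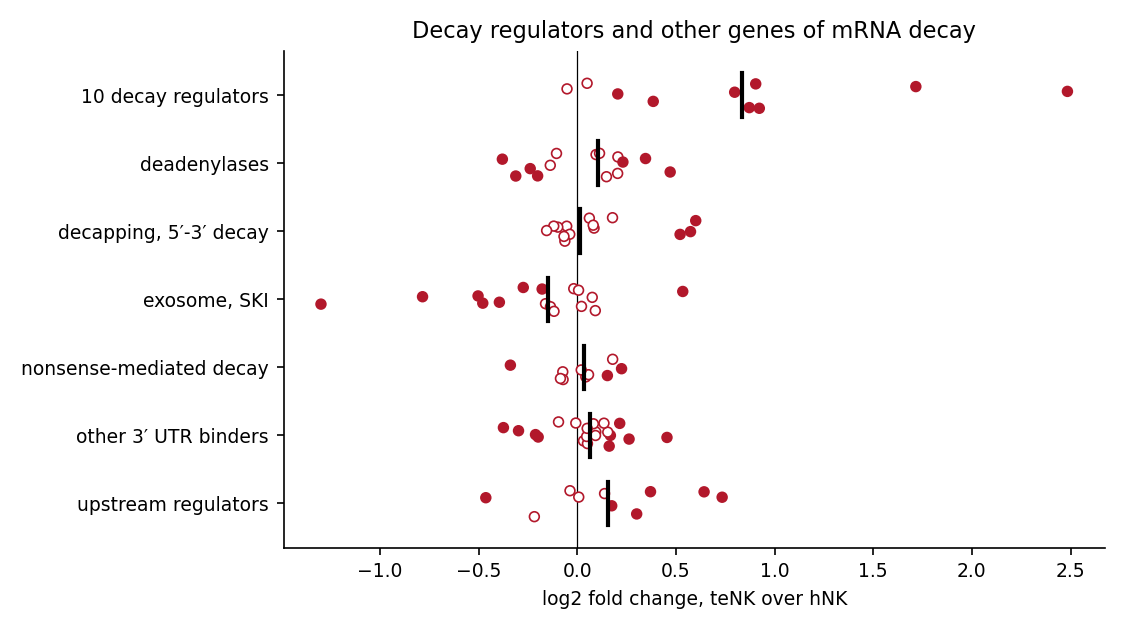
Log2 fold change in teNK over hNK of the 10 decay regulators and of 6 lists of other mRNA decay genes that were tested (points, filled where the adjusted p was under 0.05), with the median of each list (bar). The median is 0.83 for the 10 regulators and lies between -0.15 and 0.16 for the other lists.

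Transcripts described in the literature as targets moved in both directions. Of 20 listed ZFP36 targets, 15 could be tested, of which 9 rose (60%) and 5 fell (33.3%). Over all genes tested, 26.4% rose and 25.6% fell. The median log2 change of these targets was 0.33, or 1.03 without the filter on low counts. *Dusp1*, a phosphatase of MAP kinases, averaged 313 ± 21.4 CPM in teNK and 22.8 ± 7.56 CPM in hNK (log2 fold change 3.71 ± 0.15, adjusted p = 3.76e-12). *Fos* rose 132-fold and the chemokine gene *Ccl3* 10.3-fold, while the cell cycle inhibitor gene *Cdkn1a* was 6.78-fold lower in teNK. The nonamer TTATTTATT was in 11 of the 20 annotated 3′ UTRs of this list. Of 19 listed Regnase-1 or Roquin targets, 12 could be tested, and 6 rose (50%) and 5 fell (41.7%). *Nfkbid*, a nuclear IκB protein gene, averaged 102 ± 6.25 CPM in teNK and 42.0 ± 6.93 CPM in hNK (log2 fold change 1.29 ± 0.09, adjusted p = 8.12e-09), and its relative *Nfkbiz* rose 1.65-fold. *Icos*, a costimulatory receptor gene that Roquin represses in T cells, averaged 18.0 ± 2.01 CPM in teNK and 40.4 ± 3.90 CPM in hNK (-1.16 ± 0.10, adjusted p = 5.19e-08). *Tnf*, a target shared by both lists, averaged 12.5 ± 1.04 CPM in teNK and 32.1 ± 5.56 CPM in hNK (-1.34 ± 0.12, adjusted p = 9.92e-08).

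The genes whose profile over the 8 libraries came nearest to that of *Zfp36* were *As3mt*, *H2-T24* and *Nfkbia*. The measure was the root mean square difference of log2 CPM centred on each gene's mean, over 9348 candidate genes, and it was 0.08, 0.13 and 0.13. It includes the shift between the groups, so genes with a like fold change come near. The log2 fold changes of these genes were 2.54, 2.52 and 2.74, against 2.48 for *Zfp36*. *As3mt*, an arsenic methyltransferase gene, averaged 33.8 ± 1.96 CPM in teNK and 5.75 ± 0.439 CPM in hNK. *Nfkbia*, the gene of the NF-kappa-B inhibitor IκBα, averaged 348 ± 33.3 CPM in teNK and 51.7 ± 3.80 CPM in hNK. *H2-T24*, a nonclassical MHC class I gene with near copies that can share its reads, averaged 38.7 ± 2.30 CPM in teNK and 6.77 ± 0.572 CPM in hNK.

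Some of the 10 genes overlap annotated antisense genes, and the strand setting of the counting was not given in the sources used here. *Zfp36l1* shares 1672 exon bases with *Gm26669* on the other strand, which had 56 reads in teNK and 17 in hNK, against 11772 and 5761 for *Zfp36l1*. *Zfp36* shares 125 with *Gm44710* (57 reads in teNK and 36 in hNK) and *Zfp36l2* 105 with *AC132455.1* (94 reads in teNK and 36 in hNK).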

How the data were processed

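The authors deposited 1 file of raw read counts per library, with 54838 Ensembl identifiers and 5 summary lines that were left out. Per the submitters' processing notes, HISAT2 2.1.0, SAMtools, HTSeq and the build GRCm38 were used, with no roles or settings. The annotation release and the strand setting of counting are not given in the sources used here. The library kit was TruSeq Stranded mRNA, per the labels' protocols. Of all reads, 32.3% to 41.2% were in no gene. GENCODE M21 (GRCm38) gave symbols, coordinates and exon lengths.

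Counts were fitted across all genes in edgeR 4.0.16 (R 4.3.3): filterByExpr, TMM scaling, quasi-likelihood F test on group, Benjamini-Hochberg adjustment over 13903 genes, called under 0.05. The SE is the log2 fold change divided by the square root of F. Ratios within families used counts plus 0.5 and exact permutation tests (SciPy 1.17.1). RPKM is the scaled CPM per kilobase of merged exon. Alternatives used DESeq2 1.42.0, limma 3.58.1 and other settings. The code was tested on simulated data. No 2 libraries were identical or agreed within sampling noise.

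The members and lists were chosen with earlier results of these data known. Named were the 10 genes, their 6 paralogs, up to 4 genes per list with the smallest adjusted p among called genes, and the 3 nearest profiles to the largest rise; some genes that this rule names are not reported here. No called member fell, so no profile was sought for a fall. No protein sequence was used here.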

Additional observations from a re-analysis of the deposited data

Results flagged for a closer look

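In a group of 4 libraries, a library was singled out when its gap to the nearest other, divided by the group's range, was above Dixon's 95% critical value. Of 26 groups examined (13 tested genes in 2 groups), 2 were singled out, and chance alone gives about 5% of groups. *Zc3h12d* stood at 14.6 CPM in hNK replicate 4, against 7.59 to 7.70 CPM in the other 3 hNK libraries. *Btg1* stood at 1550.4 CPM in teNK replicate 1, against 1656 to 1676 CPM in the other 3 teNK libraries, and all 4 were above the highest hNK library at 1008 CPM.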

How the results depend on the processing

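The counts of 8 higher and 0 lower of the 10 genes were within 1.5 times under all 16 alternatives, and 7 genes (*Zfp36*, *Zfp36l1*, *Zfp36l2*, *Btg1*, *Btg2*, *Tob1*, *Zc3h12a*) were called higher in each of them. The cause of the changes below was not tested. With library size alone, which moves all genes by -0.13, *Rc3h1* was no longer called (0.075), *Rc3h2* turned to -0.080, and the calls were 0 paralogs higher and 1 lower, 7 decapping genes lower, 0 nonsense-mediated decay genes higher and 4 lower, 1 other 3′ UTR binder higher and 3 regulators lower. The list medians there were -0.0062 for paralogs, -0.026 for deadenylases, -0.12 for decapping, -0.28 for exosome, -0.10 for nonsense-mediated decay, -0.063 for other binders, 0.026 for regulators and -0.072 for Regnase-1 and Roquin targets. Deadenylase genes called higher were 6 with RLE factors and 5 without a filter, after thinning and with the replicate block, against 3. Nonsense-mediated decay genes called higher were 1 by DESeq2, by limma-voom and after thinning, and 0 without a filter and with the block. Paralogs called lower were 1 by limma-voom, without a filter, after thinning and with the block; paralogs called higher were 2 without a filter and 0 after thinning. Without a filter 3 other binders were higher, and after thinning 1 decapping gene was lower. The median of the ZFP36 targets was 0.51 by limma-voom and 1.03 without a filter, and that of the Regnase-1 and Roquin targets 0.39 without a filter. *Zc3h12d* turned to 0.019 by limma-voom.

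Without each library in turn, the log2 fold change of *Zc3h12d* ranged over -0.14 to 0.19, turning positive without hNK replicate 4 (0.19), teNK replicate 2 (0.0045) and teNK replicate 4 (0.0195). Ranges of counts were 0 to 1 for paralogs higher and lower, 0 to 1 for decapping genes lower, 4 to 7 for exosome genes lower, 0 to 3 for nonsense-mediated decay genes higher, 2 to 6 for other binders higher and 1 to 2 for regulators lower. Medians ranged over 0.057 to 0.14 for deadenylases, -0.015 to 0.032 for decapping and 0.0086 to 0.24 for Regnase-1 and Roquin targets. For ratios within families, 3 against 4 libraries cannot give p under 0.0571. The differences ranged over 2.06 to 2.16 (*Zfp36* to *Zfp36l1*), 1.58 to 1.66 (*Zfp36* to *Zfp36l2*), -0.56 to -0.42 (*Zfp36l1* to *Zfp36l2*), -0.84 to -0.76 (*Btg1* to *Btg2*), 0.76 to 0.85 (*Btg2* to *Tob1*), 0.63 to 1.05 (*Zc3h12a* to *Zc3h12d*) and 0.14 to 0.17 (*Rc3h1* to *Rc3h2*). The *Btg1* to *Tob1* difference ranged over -0.014 to 0.049 and was negative without hNK replicate 3 (-0.014).

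The replicate block rests only on shared numbers. Deviations of same-numbered libraries correlated at 0.045, -0.107, 0.145 and 0.0182, and 1 of the 4 teNK libraries correlated best with its own number. The block gave 3581 genes higher and 3401 lower over all genes. Within same-numbered pairs the ratio differences are the same by construction (2.11, 1.62, -0.49, -0.80, 0.82, 0.88 and 0.15), and 4 pairs cannot give p under 0.125. Reads limit *Zc3h12d* most, with 493 in teNK and 316 in hNK. A level of 3 reads equals 0.185 to 0.229 CPM in teNK and 0.242 to 0.577 CPM in hNK before scaling, for counting error only.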
